A study of Homo sapiens with 13 samples.

Results

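Messenger RNA levels of the hypoxia-inducible factor (HIF) subunits and of the enzymes that sense oxygen for them were followed in human osteoblasts grown with serum, without serum, or with 1 of 3 plant compounds. The set held 10 genes, found as the entries of the count table whose Ensembl identifier matched HIF1A, EPAS1, HIF3A, ARNT, ARNT2, EGLN1, EGLN2, EGLN3, HIF1AN or VHL, out of 43836 genes in all. Every one of the 10 had an entry, and 9 passed the filter on low counts, which left 17092 genes for testing; EGLN3 did not pass. The cells were hFOB, an immortalized line of human fetal osteoblasts, the cells that form bone. Positive controls (PC, n = 2 libraries) had medium with 10% fetal bovine serum (FBS) and the vehicle DMSO, and negative controls (NC, n = 2) had medium without FBS and the same vehicle. The treated groups received 1 mcg/mL of resveratrol (RES, n = 3), peonidin-3-O-glucoside (POG, n = 3) or the compound labelled DEG (n = 2). Per the study's methods RES and POG were added to serum-starved cells, and the medium of the DEG cells was not given in the sources used here. Another labelled DEG sample was not analysed here, and all groups came from 1 cell line.

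HIF is a pair of proteins, an oxygen-regulated alpha subunit (HIF1A, EPAS1, also called HIF-2 alpha, or HIF3A) and a constitutive beta subunit (ARNT or ARNT2). When oxygen is present, the prolyl hydroxylases EGLN1, EGLN2 and EGLN3 mark the alpha subunit, the VHL ubiquitin ligase subunit binds the mark and the protein is degraded, while the asparagine hydroxylase HIF1AN blocks its contact with coactivators. Much of this control acts on the protein, which mRNA counts do not measure. In bone, the pathway is known for coupling blood vessel growth to bone formation.

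The libraries held between 38464619 and 51416358 counted reads, and 99.967% of them fell in the genes tested. Reads of other replicate pairs differed by a chi-square of 2.07 to 2.67 per gene, and the PC pair by 11, so every comparison with PC rests on the more variable pair. Osteoblast identity was checked on 9 markers. The type I collagen chain COL1A1 was at 2460 to 2870 TMM-scaled CPM (reads relative to the scaled library total) and the bone transcription factor RUNX2 at 44.3 to 51.6 CPM over the libraries, whereas SP7 (0 to 8 reads) and IBSP (0 to 1 read) were at or near 0. ALPL (3.22 to 6.66 CPM), SPP1 (0.955 to 2.34) and BGLAP (0.425 to 2) were low as well. The 9 markers summed to 5460 to 5520 CPM in PC, 5260 to 5320 in NC and 4910 to 5030 in RES. The sum was 4750 to 4790 in POG and 4760 to 4770 in DEG. COL1A1, COL1A2 and SPARC, at 2840, 1350 and 1050 CPM in NC, made up most of the sum. It therefore says little about the other osteoblast markers. The 7 markers of endothelial cells, leukocytes and epithelium summed to between 2.82 and 9.15 CPM, highest in RES (7.11 to 9.15) and lowest in PC (2.82 to 2.97). Of these CDH5, PTPRC and CDH1 had at most 12 reads in any library. The endothelial markers VWF and PECAM1 were not absent, with 9 to 247 and 50 to 110 reads. VWF had group means of 0.299 CPM in PC, 2.53 in NC and 4.88 in RES, and was called in PC and RES against NC. PECAM1 was called lower in PC, POG and DEG than in NC. The part of these markers in the results was not tested. In bulk RNA, fewer cells expressing a gene and less RNA per cell cannot be told apart. Nothing in the labels says that the libraries of a group were separate cultures. The p-values thus measure the spread between these libraries, which may be technical. Dispersions were estimated over all 12 libraries. For comparisons with PC, p-values and standard errors therefore draw on the tighter pairs too and may be too small.

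**Figure D1:**
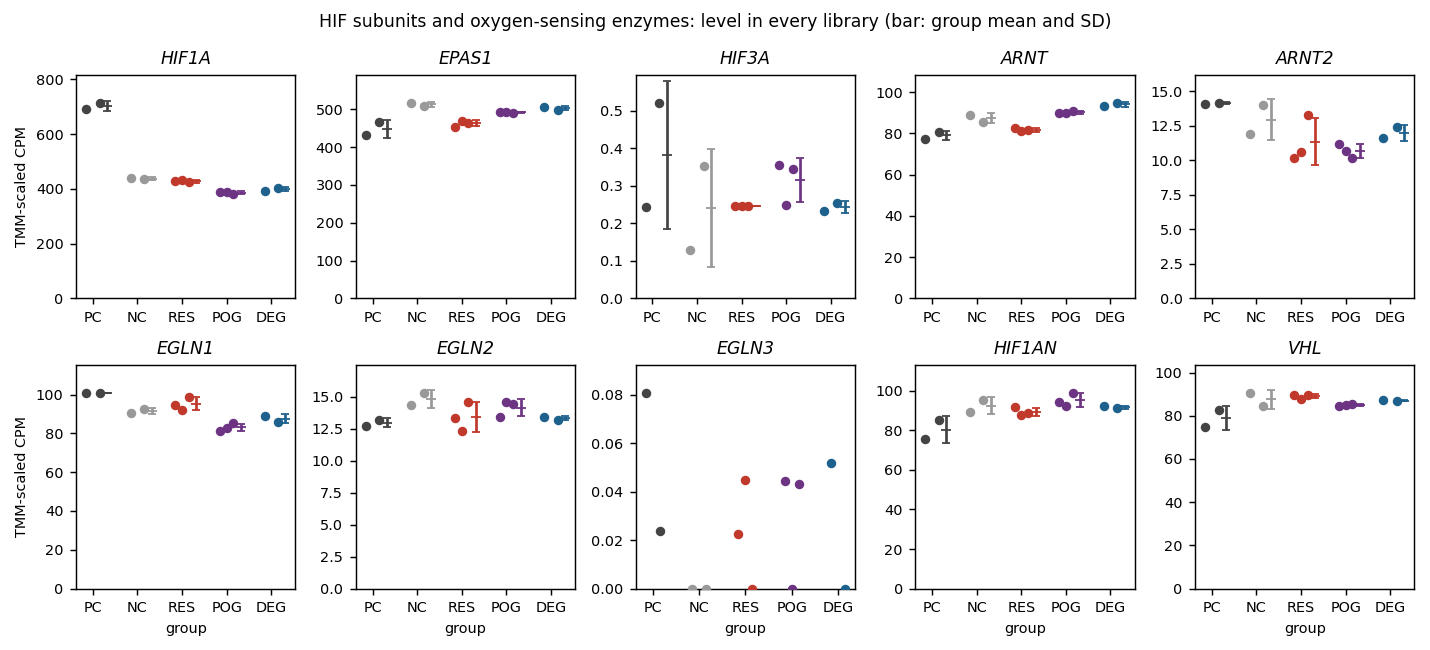
TMM-scaled CPM of each of the 10 genes in each of the 12 libraries (1 panel per gene, vertical axis from 0, linear), by group PC, NC, RES, POG and DEG, with the group mean and SD beside the points except for EGLN3, which had 14 reads in all. HIF1A in PC, at 690 and 715 CPM, stands apart from the other 10 libraries, at 382 to 440.

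Per kilobase of exon, HIF1A had the highest mean level over the libraries (89.2 CPM per kb), followed by EPAS1 (66.2 CPM per kb), so both alpha subunits lay far above the other members. VHL at 17.1, EGLN1 at 17, ARNT at 13.4 and HIF1AN at 6.5 CPM per kb came next on the same scale. EGLN2 (2.09) and ARNT2 (1.56 CPM per kb) were lower again. Among the EGLN genes EGLN1 thus had the highest counted level, and ARNT was the main beta subunit mRNA of these cells. EGLN2 shares 30.6% of its exon bases with the counted gene RAB4B-EGLN2, so EGLN2 may be undercounted if shared reads were dropped. This was not tested. HIF3A, at 0.034 CPM per kb, and EGLN3, at 0.00352 CPM per kb, were near the limit of detection. The order was the same in NC, RES, POG and DEG, and in PC only EGLN1 (18.7) and VHL (15.7 CPM per kb) changed places. Both HIF1A and EPAS1 were among the most abundant mRNAs of the cells, at the 98.4 and 98.5 percentile of the genes tested by CPM.

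The promoters of HIF1A, EGLN1 and EPAS1 are given because these were the members with the most reads that moved with serum, the first 2 being higher and EPAS1 lower. Each runs from 250 bases before to 50 after the transcription start in RefSeq (GRCh38.p14), read 5′ to 3′ on the strand of the gene. Capitals mark the core of the HIF-binding element, searched as ACGTG or GCGTG on both strands.
HIF1A, chr14:61695263-61695562, plus strand: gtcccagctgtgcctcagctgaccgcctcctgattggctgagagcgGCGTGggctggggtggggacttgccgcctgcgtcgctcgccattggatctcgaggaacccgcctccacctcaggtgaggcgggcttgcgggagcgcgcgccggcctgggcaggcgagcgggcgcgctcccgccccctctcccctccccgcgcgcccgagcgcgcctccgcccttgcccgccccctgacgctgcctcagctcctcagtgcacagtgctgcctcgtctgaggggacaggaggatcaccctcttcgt
EGLN1, chr1:231422238-231422537, minus strand: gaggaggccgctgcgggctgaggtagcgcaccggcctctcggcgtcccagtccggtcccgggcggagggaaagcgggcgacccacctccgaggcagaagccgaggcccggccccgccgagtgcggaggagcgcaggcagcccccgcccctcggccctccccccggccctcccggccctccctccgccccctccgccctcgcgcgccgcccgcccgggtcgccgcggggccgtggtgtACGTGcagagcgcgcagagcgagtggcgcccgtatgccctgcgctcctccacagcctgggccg
EPAS1, chr2:46297157-46297456, plus strand: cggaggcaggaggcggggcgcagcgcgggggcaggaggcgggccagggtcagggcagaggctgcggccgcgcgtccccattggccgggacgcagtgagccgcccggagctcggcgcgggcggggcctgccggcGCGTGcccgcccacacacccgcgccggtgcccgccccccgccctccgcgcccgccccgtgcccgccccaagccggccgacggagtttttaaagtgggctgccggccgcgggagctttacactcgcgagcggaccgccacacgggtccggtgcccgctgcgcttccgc
HIF1A and EPAS1 each held 1 GCGTG and EGLN1 held 1 ACGTG, with a G+C content of 73%, 80% and 80%. A second promoter listed for HIF1A (chr14:61697462-61697761, G+C 31.7%) is not shown and held 0 motifs. Of all 35116 promoters of this length in the table, 48.4% held at least 1 of the 2 motifs (ACGTG 21.4%, GCGTG 36.5%), so a match was common. Of the 12 promoters listed for 8 members, 5 held a motif.

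Serum was the condition in which the members differed most. The compounds are described against NC and then against each other, and comparisons that name the same group share its libraries. HIF1A (chr14:61695513-61748259, plus strand, hg38), the alpha subunit of HIF-1, was at 690 and 715 CPM in PC, 440 and 434 in NC, 427, 432 and 423 in RES, 388, 389 and 382 in POG, and 393 and 403 in DEG. The PC libraries lay far above all others, the RES libraries lay just below those of NC, and POG and DEG lay below both NC and RES. With serum HIF1A was 1.61-fold higher than without (log2 difference 0.68, SE 0.03, edgeR exact test FDR 2.27e-82).

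EPAS1 (chr2:46293667-46386697, plus strand), the alpha subunit of HIF-2, went the other way. It was at 432 and 466 CPM in PC, 518 and 509 in NC, 454, 470 and 464 in RES, 494, 492 and 490 in POG, and 507 and 499 in DEG. NC was the highest group, PC and RES overlapped at the bottom, and the fold between PC and NC was 0.875 (log2 difference −0.19, SE 0.03, edgeR FDR 1.9e-06). Among group means ordered from NC through DEG, POG and RES to PC, only the step from POG to RES passed the test (edgeR FDR 0.0172). For HIF1A, ordered PC, NC, RES, DEG, POG, the steps from PC to NC and from RES to DEG passed (edgeR FDR 2.27e-82 and 0.0105), whereas NC to RES and DEG to POG did not (edgeR FDR 0.616 and 0.705).

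Of the 9 members tested, 6 differed between PC and NC, 2 higher (HIF1A, EGLN1) and 4 lower (EPAS1, ARNT, HIF1AN, VHL) with serum. Across all genes 42.4% were called in this comparison (21.5% higher, 20.9% lower), so 6 of 9 was not far from the background, and the median absolute log2 difference of the members, 0.193, was below that of all genes, 0.215. EGLN1 (chr1:231363751-231422287, minus strand), the main oxygen sensor of the pathway, was at 101 and 101 CPM in PC and at 90.4 and 92.6 in NC, without overlap (1.1-fold, edgeR FDR 0.00561). HIF1AN (chr10:100529072-100559998, plus strand) was at 75.5 and 85.2 CPM in PC and 89.5 and 95.5 in NC (log2 difference −0.21, SE 0.05, edgeR FDR 0.00032). ARNT (chr1:150809713-150876708, minus strand) was at 77.4 and 80.7 CPM in PC and 89 and 85.6 in NC (−0.14, SE 0.04, edgeR FDR 0.00329). None of these 3 overlapped between the groups, but EGLN2 and ARNT2, which were not called, did not overlap either. Lack of overlap of 2 against 2 libraries is thus weak support. For HIF1AN the gap between groups was smaller than the distance within the PC pair and within the NC pair. VHL (chr3:10141778-10153667, plus strand) was at 74.9 and 82.7 CPM in PC and 90.7 and 84.5 in NC (−0.15, SE 0.05, edgeR FDR 0.00432). For VHL the gap between groups was smaller than the distance within either pair. EGLN2, a prolyl hydroxylase, ARNT2, the second beta subunit, and HIF3A did not pass, with log2 differences of −0.19, 0.13 and 0.63 (edgeR FDR 0.0605, 0.342 and 0.42). The smaller calls depended on single libraries: without NC replicate 1 the edgeR FDR of ARNT, EGLN1 and VHL was 0.0927, 0.0861 and 0.181, without PC replicate 1 that of VHL was 0.186, and without NC replicate 2 that of HIF1AN was 0.0523. With dispersions taken from PC and NC alone the FDR of ARNT, EGLN1 and VHL was 0.068, 0.0857 and 0.0754, while HIF1A and EPAS1 were called in every alternative.

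**Figure D2:**
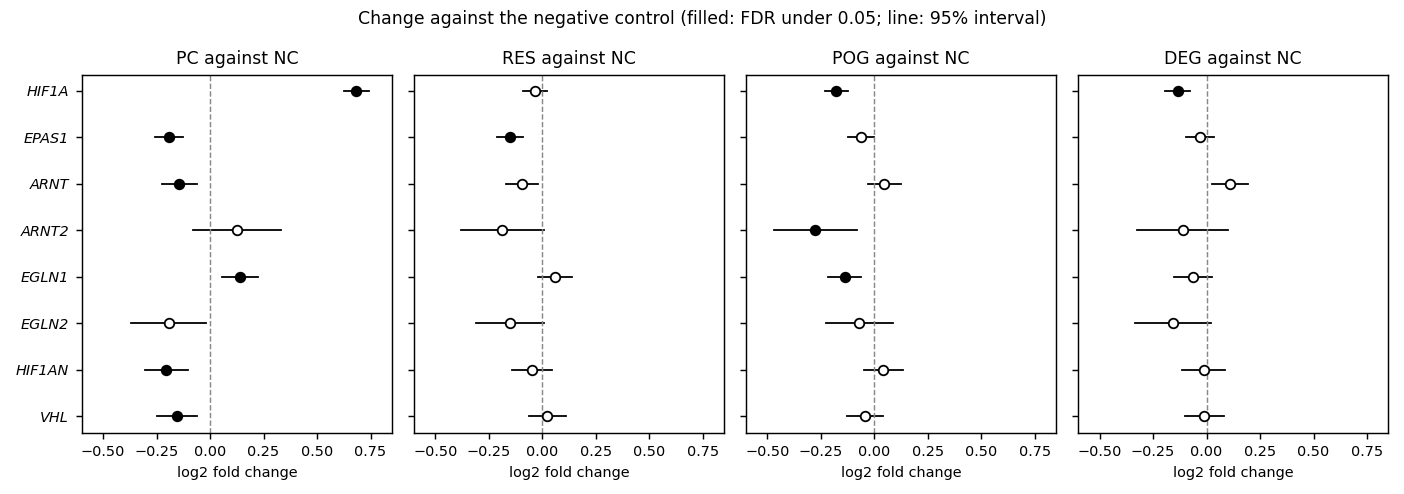
Log2 difference from NC with its 95% interval (horizontal axis) for 8 members in PC, RES, POG and DEG; HIF3A and EGLN3, with 148 and 14 reads in all, are left out. HIF1A with serum, at 0.68, is the only value beyond 0.3 on either side.

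Resveratrol moved 1 of the 9 members against NC, where 11.2% of all genes were called and 6.25% were called lower. That member was EPAS1, which was 0.901 of the NC level (log2 difference −0.15, SE 0.03, 95% interval −0.21 to −0.091, edgeR FDR 0.00037) and whose 3 RES libraries all lay below the 2 NC libraries; the call held in every alternative. HIF1A differed by −0.03 (95% interval −0.088 to 0.023, edgeR FDR 0.616), an interval that excludes the 1.61-fold size of the serum difference. The hydroxylases and VHL gave 0.06 for EGLN1 (−0.02 to 0.137), −0.05 for HIF1AN (−0.139 to 0.044) and 0.02 for VHL (−0.06 to 0.109). ARNT2 did not pass with all libraries (−0.19, edgeR FDR 0.218) and passed without RES replicate 3 (−0.31, edgeR FDR 0.0142), which at 13.3 CPM stood above the 10.2 and 10.6 of the other RES libraries.

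With POG 3 of the 9 members were lower than in NC and 0 higher by the edgeR exact test, against 14.6% of all genes called in either direction and 8.6% called lower. HIF1A fell to 0.884 of the NC level (log2 difference −0.18, SE 0.03, 95% interval −0.233 to −0.123, edgeR FDR 1.32e-06), and the call held in every alternative. EGLN1 was at 81.3, 82.6 and 85.3 CPM with POG, below both NC libraries (log2 difference −0.14, SE 0.04, edgeR FDR 0.00822). ARNT2 (chr15:80404350-80597933, plus strand), which forms HIF with the same alpha subunits as ARNT and is best known from neurons, was at 11.2, 10.7 and 10.2 CPM with POG and at 11.9 and 14 in NC (log2 difference −0.28, SE 0.09, edgeR FDR 0.0309). EPAS1 (−0.06, 95% interval −0.121 to −0.002), ARNT (0.05), HIF1AN (0.04, −0.049 to 0.134), VHL (−0.04, −0.127 to 0.042) and EGLN2 (−0.07) did not pass the edgeR exact test, with FDR values from 0.251 to 0.654, nor did HIF3A. The EGLN1 call was lost without NC replicate 2 or POG replicate 1 (edgeR FDR 0.176 and 0.0635). That of ARNT2 was lost without NC replicate 2, POG replicate 2 or POG replicate 3 (edgeR FDR 0.554, 0.0761 and 0.129), and by the quasi-likelihood test of edgeR and by DESeq2 (FDR 0.051 and 0.0629).

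With DEG, 1 of 9 members was called against NC, where 9.64% of all genes were called and 6.11% were called lower. It was HIF1A, at 0.91 of the NC level (log2 difference −0.14, SE 0.03, 95% interval −0.196 to −0.075, edgeR FDR 0.00314), a call that was lost without NC replicate 1 or DEG replicate 1 (edgeR FDR 0.0828 and 0.145). ARNT was at 93.3 and 95 CPM with DEG, above both NC libraries, yet did not pass (log2 difference 0.11, SE 0.04, edgeR FDR 0.0972). EGLN1 (−0.06), EPAS1 (−0.03), HIF1AN (−0.01) and VHL (−0.01) gave small log2 differences from NC, with edgeR FDR values from 0.471 to 0.967. EGLN2 (−0.16) and ARNT2 (−0.11) had wider errors (SE 0.09 and 0.10) and did not pass either (edgeR FDR 0.299 and 0.625).

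Between compounds at the same dose, POG and RES differed in 4 of the 9 members, against 27.9% of all genes (13.7% higher, 14.1% lower). HIF1A and EGLN1 were lower with POG than with RES, at 0.904-fold and 0.872-fold (log2 difference −0.15 and −0.20, SE 0.02 and 0.03, edgeR FDR 6.04e-06 and 8.36e-07), and no POG library overlapped a RES library in either gene. HIF1AN, VHL and HIF3A did not overlap either but were not called (edgeR FDR 0.0932, 0.197 and 0.607). Lack of overlap is thus weak support here too. ARNT and EPAS1 were higher with POG, at 1.1-fold and 1.06-fold (0.14 and 0.09, SE 0.03 and 0.03, edgeR FDR 0.000405 and 0.0172). The EPAS1 call was lost when any of 5 libraries was left out: without RES replicate 1, RES replicate 3, POG replicate 1, POG replicate 2 or POG replicate 3 its edgeR FDR was 0.113, 0.0534, 0.0724, 0.061 and 0.0528. HIF1AN (0.09, 95% interval 0.009 to 0.171), VHL (−0.07, −0.142 to 0.007), ARNT2 (−0.09, −0.264 to 0.084) and EGLN2 (0.08, −0.061 to 0.22) did not pass.

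DEG and RES differed in 4 of the 9 members, against 21.2% of all genes (10.4% higher, 10.9% lower): ARNT was 1.15-fold higher (log2 difference 0.20, SE 0.04, edgeR FDR 4.96e-06), EPAS1 was higher by 0.12 and EGLN1 lower by −0.12, and HIF1A differed by −0.10 (edgeR FDR 0.00401, 0.0189 and 0.0105). The ARNT call held in every alternative. HIF1A lost its call without RES replicate 2 or DEG replicate 1 (edgeR FDR 0.0554 and 0.228), EPAS1 without DEG replicate 1 (0.11), and EGLN1 without RES replicate 3, DEG replicate 1 or DEG replicate 2 (0.134, 0.0534 and 0.28). The RES libraries enter this comparison and the one with POG.

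DEG and POG differed in 0 of 9 members by the edgeR exact test, by its quasi-likelihood test and by DESeq2, with 0 members at an unadjusted p under 0.05, where 1.07% of all genes were called. The intervals bound the possible difference in log2 units at −0.013 to 0.098 for HIF1A, −0.028 to 0.091 for EPAS1, −0.013 to 0.137 for ARNT, −0.003 to 0.156 for EGLN1 and −0.031 to 0.362 for ARNT2. They do not show that the 2 compounds act alike.

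**Figure D3:**
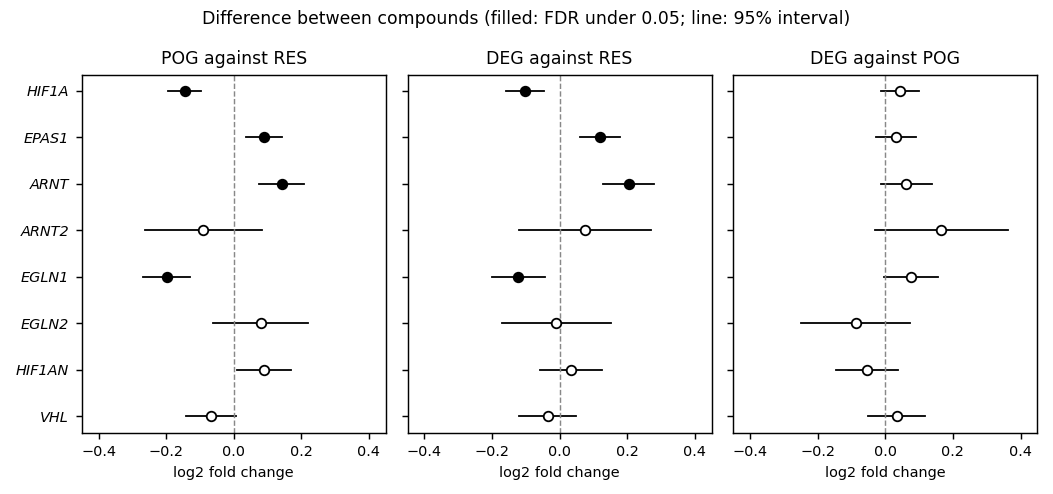
Log2 difference with its 95% interval (horizontal axis) for 8 members in POG against RES, DEG against RES and DEG against POG; HIF3A and EGLN3 are left out. HIF1A and EGLN1 lie below 0 and ARNT and EPAS1 above 0 in both comparisons with RES, whereas the intervals of these 4 genes include 0 for DEG against POG.

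Serum was also compared with each compound group. Of 9 members, 4 differed between PC and RES, 7 between PC and POG and 7 between PC and DEG, against 45.7%, 47.9% and 43.5% of all genes. HIF1A was higher with serum in each, by log2 differences of 0.72, 0.86 and 0.82 (edgeR FDR 3.34e-112, 1.77e-162 and 2.33e-117). HIF1AN was lower with serum in each (−0.16, −0.25 and −0.19), but without PC replicate 1 its call was lost against RES and DEG (edgeR FDR 0.225 and 0.0656). VHL was lower in each too (−0.18, −0.11 and −0.14), and without PC replicate 1 its edgeR FDR was 0.522 against POG and 0.244 against DEG; it was also lost against POG without POG replicate 2 or 3 (0.0588 and 0.0673) and against DEG without DEG replicate 1 or 2 (0.0581 and 0.0532). With dispersions of the groups compared its edgeR FDR was 0.0821 against POG and 0.0797 against DEG. ARNT2 was higher with serum by 0.31, 0.40 and 0.24, and against DEG the call was lost when any of the 4 libraries was left out (edgeR FDR 0.0617 to 0.288), and with all libraries by the quasi-likelihood test of edgeR (FDR 0.0607), by DESeq2 (0.09) and with plain totals (0.161). The other calls were EPAS1 and ARNT, lower with serum than with POG (−0.13 and −0.19) and DEG (−0.16 and −0.25), and EGLN1, higher (0.28 and 0.20). EPAS1 and EGLN1, not called against RES (edgeR FDR 0.324 and 0.0891), were called without PC replicate 2 (0.00236) and without RES replicate 3 (0.0385).

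Ratios of 2 members within a library do not depend on scaling. HIF1A reads per EPAS1 read were 1.59 and 1.54 in PC, 0.85 and 0.853 in NC, 0.941, 0.919 and 0.912 in RES, 0.786, 0.791 and 0.779 in POG, and 0.775 and 0.809 in DEG. Every pair of groups was separate except DEG and POG, and HIF1A was the more abundant of the 2 by reads in PC alone. The ratio was 1.84-fold higher in PC than in NC (exact two-sided permutation test p = 0.333, the smallest 2 against 2 libraries can give) and 0.85-fold in POG against RES (exact permutation p = 0.1, again the smallest possible). HIF1A reads per ARNT read were 8.91 and 8.86 in PC, 4.94 and 5.08 in NC, 5.17, 5.33 and 5.19 in RES, 4.32, 4.33 and 4.2 in POG, and 4.21 and 4.25 in DEG. In POG against RES the fold was 0.819 (exact permutation p = 0.1), and DEG and POG overlapped. HIF1A reads per EGLN1 read were 6.86 and 7.08 in PC and between 4.29 and 4.87 in the NC, RES, POG and DEG libraries, whose groups mostly overlapped.

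**Figure D4:**
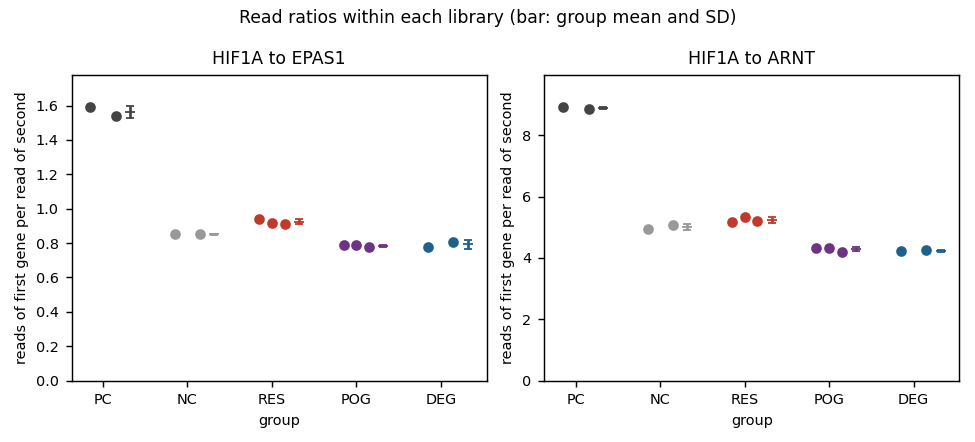
Reads of HIF1A per read of EPAS1 (left) and of ARNT (right) within each library (linear axes from 0), by group, with each library as a point and the group mean and SD beside them. PC lies above all other groups in both panels, and the RES libraries lie above those of POG and DEG.

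HIF3A, an alpha subunit that can oppose the other two, had 5 to 22 reads a library. Pooled over libraries it was at 0.371 CPM in PC (95% counting interval 0.257 to 0.519), 0.242 in NC (0.146 to 0.378), 0.246 in RES (0.17 to 0.346), 0.317 in POG (0.229 to 0.427) and 0.244 in DEG (0.147 to 0.38), and none of the 10 comparisons called it. EGLN3 (chr14:33924227-34462774, minus strand), a prolyl hydroxylase that HIF itself induces, had 14 reads in all: 4 and 1 in PC, 0 and 0 in NC, 1, 2 and 0 in RES, 2, 0 and 2 in POG, and 2 and 0 in DEG. The 0 reads of NC allow a level of up to 0.0382 CPM (3 reads over the group; the 95% counting interval reaches 0.047 CPM), and the pooled PC level was 0.0546 CPM (95% counting interval 0.0177 to 0.127), so no difference was detectable at this depth. These intervals cover counting error only.

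Some reads of the members could belong to neighbouring genes, and member reads in bases shared with a counted gene could have been dropped. On the opposite strand, HIF1A-AS3 overlaps 299 nt (5.8%) and HIF1A-AS1 133 nt (2.58%) of HIF1A exons; the counting strand was not given in the sources used here, so sense and antisense reads cannot be told apart. Both were called higher in PC than in NC, HIF1A-AS1 with 52 and 43 reads against 21 and 25, and HIF1A-AS3 with 26 and 17 against 3 and 2, which is far below the 30176 or more reads of HIF1A in those PC libraries. DESeq2 called neither of the 2, and 1 stayed called when any PC or NC library was left out. For EGLN1, 3004 nt (55.8%) of the exons are shared on the same strand with ENSG00000287856, and for VHL 1173 nt (23.5%) with ENSG00000287086 on the opposite strand; neither has an entry in the count table. EGLN2 shares 2012 nt (30.6%) of its exons on the same strand with RAB4B-EGLN2, which had 1 read in all. HIF1AN shares 325 nt (2.34%) on the opposite strand with NDUFB8, which had 2970 reads in all. How reads in shared bases were counted was not given in the sources used here. EPAS1 overlaps no annotated gene.

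Among 11097 other genes averaging 5 CPM or more, the 3 whose centred log2 levels over the 12 libraries were nearest to HIF1A were LDHA, HPCAL1 and MYL9, with root mean square differences of 0.0389, 0.0502 and 0.0525 log2 units, where the median gene was at 0.309. LDHA, the lactate dehydrogenase subunit of glycolysis, had group means of 923 CPM in PC, 588 in NC, 561 in RES, 514 in POG and 515 in DEG. Nearest to EPAS1 were TNKS1BP1, MPZL1 and HDAC7, at 0.0254, 0.0292 and 0.0293, against a median of 0.125.

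Of 33 listed targets of HIF, 32 were tested (EPO, the hormone of red cell production, was below the filter). Of all genes, 42.4% were called in PC, 11.2% in RES, 14.6% in POG and 9.64% in DEG against NC, and 27.9% in POG against RES. With serum 15 targets were higher and 6 lower than in NC. The list median log2 difference was 0.133 beside −0.006 for all genes. The largest were CA9, a carbonic anhydrase (5.98 against 1.86), VEGFA, the vessel growth factor (476 against 207), ADM (56.3 against 29.5) and the glycolytic aldolase ALDOC (30.9 against 53.9), with log2 differences of 1.69, 1.20, 0.94 and −0.80. RES left 3 higher and 13 lower (median −0.089, beside 0.001), led by ANGPTL4 (−0.80, edgeR FDR 1.81e-47), TFRC (−0.44), NDRG1 (−0.41) and HK2 (−0.38). POG left 6 higher and 11 lower (median −0.04), led by ANGPTL4 (31.9 ± 1.33 against 64.7 ± 1.26 CPM, SD, −1.02, edgeR FDR 5.87e-77), ADM (−0.48), VEGFA (−0.42) and HK2 (−0.31). DEG left 9 higher and 11 lower (median −0.02), led by CA9 (0.88), ANGPTL4 (−0.49), VEGFA (−0.38) and INSIG2 (0.36). Without NC replicate 1 the calls of CA9 and INSIG2 were lost (edgeR FDR 0.0592 and 0.263), and without DEG replicate 2 that of INSIG2 (0.0764). Between POG and RES 10 targets were higher and 8 lower with POG, led by TFRC, the transferrin receptor (241 against 160 CPM, 0.59), ADM (−0.57), ALDOC (0.45) and P4HA1 (0.39).

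**Figure D5:**
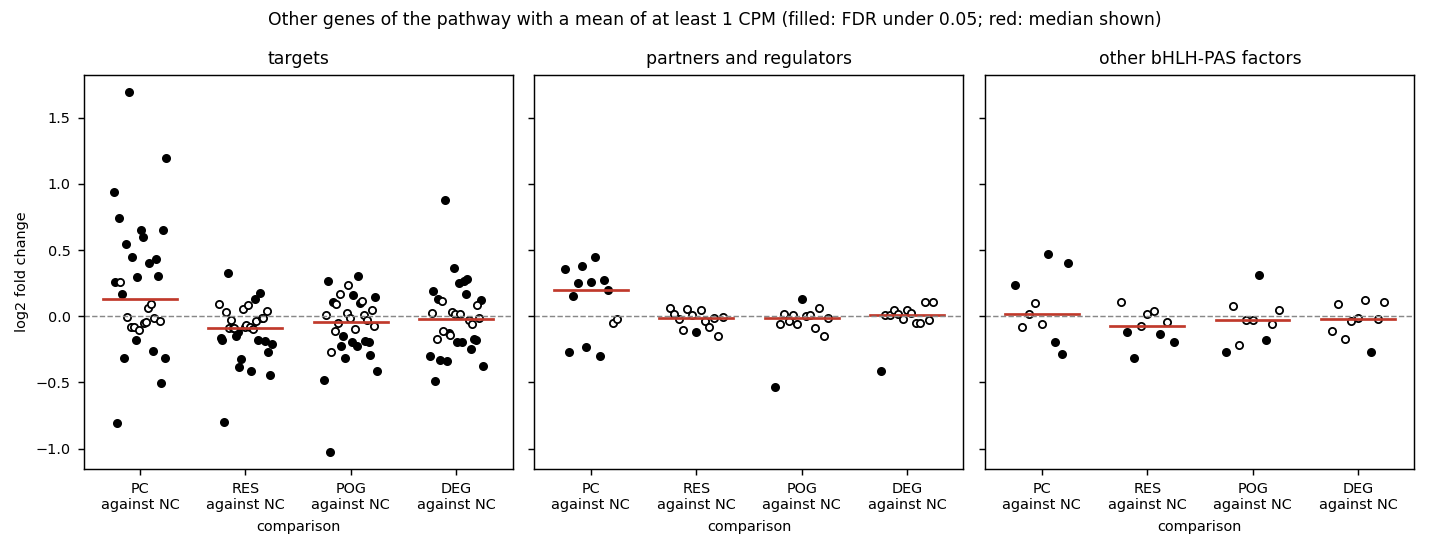
Log2 difference (vertical axis) of each listed gene averaging 1 CPM or more in the lists of HIF targets, partners and regulators, and other bHLH-PAS factors, for PC, RES, POG and DEG against NC; filled points had an edgeR FDR under 0.05, and a red line marks the median of the genes shown, which can differ from the medians over all tested genes of a list. CA9, at 1.69, is the highest target with serum.

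The 13 partners and regulators of HIF include the elongin subunits that carry VHL, the coactivators CREBBP and EP300 and the chaperone HSP90. Of the 13, 8 were higher and 3 lower with serum, where 42.4% of all genes were called. HSP90AB1 (1110 against 817 CPM, log2 difference 0.44), ELOC (0.38), CITED2 (0.36) and P4HTM (−0.30), a membrane hydroxylase, led them. Against NC, 0 of the 13 were higher and 1 lower with RES, 1 and 1 with POG, and 0 and 1 with DEG. Of all genes, 11.2%, 14.6% and 9.64% were called there, so these counts were near the background. CITED2, which competes with HIF for the coactivators and is itself induced by HIF, was lower with both POG and DEG: it was at 50.7 ± 2.02 CPM with POG, 55 ± 3.29 with DEG and 73.4 ± 3.65 in NC (SD), with log2 differences of −0.53 and −0.42 (edgeR FDR 2.75e-28 and 1.13e-13). With RES its difference from NC was 0.06 (edgeR FDR 0.426), and POG against RES gave −0.60 (edgeR FDR 1.42e-45). HSP90AA1 was higher by 0.13 with POG and differed by −0.12 with RES, a call lost without NC replicate 1 (edgeR FDR 0.0947). Of 11 other factors of the same bHLH-PAS family, 3 were higher and 2 lower with serum, 0 and 4 with RES, 1 and 3 with POG, and 0 and 2 with DEG. Of all genes, 42.4%, 11.2%, 14.6% and 9.64% were called in these comparisons, so the 5 of 11 with serum were near the background. The lower calls with POG and DEG include NPAS4, near the floor at 0.0294 and 0.0127 CPM against 0.191 in NC. By the quasi-likelihood test of edgeR and by DESeq2 the count with DEG was 1. These counts rest on few libraries: without NC replicate 1 the call count was 0 with RES, 2 with POG and 1 with DEG. NPAS2, a clock factor, was lower with DEG (−0.27, edgeR FDR 3.66e-10), and AHR, the aryl hydrocarbon receptor, differed by −0.38 between POG and RES (edgeR FDR 8.68e-11).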

How the data were processed

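Polyadenylated RNA of hFOB cells was sequenced, and reads were aligned by the authors to hg38 (STAR; the study's methods also name BWA MEM) and counted per Ensembl gene with featureCounts; versions, annotation release, strand and multimapping were not given in the sources used here. The deposited values are raw counts, not normalized, with 12 library columns for 13 labelled samples. From these counts, genes were filtered by group (filterByExpr) and scaled by TMM in edgeR 4.0.16 (limma 3.58.1, R 4.3.3), dispersions came from all 12 libraries (common biological variation 3.2%), and each of 10 pairs of 5 groups was compared with the edgeR exact test, which the study's methods name. Calls are Benjamini-Hochberg FDR under 0.05 over 17092 genes. Standard errors came from the edgeR quasi-likelihood fit, and 95% intervals placed them around the log2 difference of the exact test. An interval can therefore exclude 0 where the exact test does not call the gene. Levels per kb used union exon lengths of GENCODE on hg38; its release can differ from that of the counts. Of 43836 identifiers, 43214 matched a symbol. Alternatives were the quasi-likelihood test, DESeq2 1.42.0, median-of-ratios factors, plain totals, no filter, dispersions of the groups compared, and each library left out. The script was tested on simulated data. The members and lists were chosen with earlier results of these data known. All members were named. From each list came the 4 called genes of at least 1 CPM with the largest change. The 3 genes of nearest pattern to HIF1A and EPAS1 and some genes overlapping a member were named too. Others were chosen after their values were seen. A target gene was taken out of its list after the values were seen and is not reported here. Replicate numbers are accession order only.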

Additional observations from a re-analysis of the deposited data

How the results depend on the processing

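Of 37 calls of members in the 10 comparisons, 21 held in every alternative run, and none of the 37 changed sign. Of 971 member values under alternatives 21 changed sign, all in 17 differences that were not called. With plain totals HIF1AN and VHL in DEG against NC were 0.0062 and 0.009. With 1 library left out, the log2 difference of HIF3A ranged from −0.5095 to 0.9204 in RES against NC, −0.1509 to 1.2782 in POG against NC, −0.5261 to 0.9019 in DEG against NC, −0.0832 to 0.0454 in DEG against RES, −0.0149 to 1.0767 in PC against RES and −0.3755 to 0.7164 in PC against POG. For HIF1AN it ranged from −0.0934 to 0.0032 in RES, −0.0031 to 0.0925 in POG and −0.0587 to 0.0382 in DEG against NC, and for VHL from −0.023 to 0.0761, −0.0907 to 0.0095 and −0.057 to 0.0418. ARNT2 ranged from −0.2236 to 0.0142 in DEG against NC and −0.1615 to 0.0352 in POG against RES, EGLN2 from −0.0666 to 0.057 in DEG against RES and −0.1012 to 0.0228 in PC against RES, and EPAS1 from −0.091 to 0.0137 in PC against RES. With plain library totals the count of members called in DEG against NC was 2. With dispersions from the groups compared it was 3 in PC against NC, 2 in RES against NC and 2 in DEG against NC. With 1 library left out the count ranged from 3 to 6 in PC against NC, 1 to 2 in RES against NC, 1 to 3 in POG against NC, 0 to 1 in DEG against NC, 3 to 4 in POG against RES, 1 to 4 in DEG against RES, 3 to 5 in PC against RES, 6 to 7 in PC against POG and 4 to 6 in PC against DEG, and was 0 in DEG against POG. EPAS1 was called in POG against NC (FDR 0.0181), HIF1AN in POG against RES (0.00702) and ARNT in RES and DEG against NC (0.0468 and 0.02) with dispersions of the groups compared, as were 3 partners and regulators in RES against NC and 5 in POG against RES, beside 1 and 2 with dispersions from all libraries. With plain totals the edgeR FDR of EGLN1 in PC against NC was 0.0659, that of ARNT2 in POG against NC 0.0526, and EGLN2 in PC against NC was called (0.0176). The causes were not tested. Where an arm is left with 1 library, that library is assumed to vary like the other groups. HIF3A and EGLN3 had too few reads for a small difference to be seen. No paired analysis was possible because the labels carry no replicate numbers and numbers were given in accession order.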
